A study of Mus musculus with 18 samples.

Results

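The genes for the proteins of the cytosolic ribosome were followed in spinal cords of SMNΔ7 mice, a model of spinal muscular atrophy (SMA), over the first postnatal days. They were chosen by symbol: a gene locus had to carry a single symbol of the form Rpl or Rps with a number, with or without a final a or x, or be Rplp0, Rplp1, Rplp2 or Rpsa. This rule found 53 of 58570 gene loci, 29 for the large and 24 for the small subunit. A further 23 ribosomal protein symbols, 17 large and 6 small, sat in loci that the deposited tables join with another gene, so 53 of 76 symbols of this form had a value of their own.

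Total RNA of whole cords was sequenced after removal of ribosomal RNA, with a stranded kit. The labels give 6 groups of 3 libraries, 18 in all: SMA cords from homozygotes and control cords from heterozygotes, each taken at postnatal day 2 (P2), P6 or P10. The strain label SMNdelta7 is shared by every group; as background, this line carries human SMN2 as a genomic transgene and a human SMN cDNA without exon 7 under an SMN promoter, on a disrupted mouse Smn1, and these transgenes act in all cells and not in neurons only. The labels do not say whether a library came from 1 cord or from pooled cords. The deposited tables give 1 value per gene and group that stands for its 3 libraries together, so no spread between replicates can be shown, and ± below is a standard error taken from the authors' interval around each value.

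The ribosome is built from a large subunit, which joins amino acids, and a small subunit, which reads the mRNA. Each holds many different proteins around its ribosomal RNA, most of them in single copy. Cells thus make most of these proteins in near equal amounts, from mRNAs that are among the most abundant in any tissue. In vertebrates these mRNAs begin with a C followed by a run of pyrimidines, the 5′ terminal oligopyrimidine (TOP) tract, through which mTOR signalling and the protein LARP1 control their translation as a group. Growing cells with high protein synthesis have high levels of these mRNAs; the ribosomal RNA itself was removed from the libraries and is not measured here.

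The letters of the tract are shown for 6 members because these include the longest tracts and the genes at both ends of the change with age described below. Each line gives 15 bases before and 15 bases from the annotated transcription start, 30 in all, 5′ to 3′ on the strand of the gene, with the tract in capitals; sequences and start sites are from RefSeq on GRCm38.p6.
Rpl15, chr14:18270972-18271001, minus strand: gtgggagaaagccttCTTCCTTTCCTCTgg
Rpl35, chr2:39005117-39005146, minus strand: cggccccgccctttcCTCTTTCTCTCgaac
Rps10, chr17:27635230-27635259, minus strand: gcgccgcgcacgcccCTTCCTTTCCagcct
Rps6, chr4:86857353-86857382, minus strand: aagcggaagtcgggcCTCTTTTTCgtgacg
Rpl28, chr7:4792950-4792979, plus strand: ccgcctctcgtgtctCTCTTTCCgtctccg
Rps27, chr3:90213634-90213663, minus strand: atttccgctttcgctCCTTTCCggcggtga

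A tract, taken as a C at the start site followed by pyrimidines to a length of 5 or more, was present in 12 of the 42 members with an entry, or 28.6%, against 3.01% of 27025 genes in the same table and 2.71% of its 16522 protein-coding genes. Besides the 6 printed, these were Rps18, Rpl35a, Rpl38, Rps15a, Rpl14 and Rps21, 6 of them large and 6 small subunit genes in all. In the other 30 members the annotated start was not at such a tract; a start annotated a few bases away from the one in use gives the same reading. The other 11 members were not in the table.

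In the 250 bases before and 50 after the start, searched on both strands, the sequence CCGGAAGT, which ETS family factors such as GABP bind, occurred in 23.8% of the 42 members, 4.31% of all 27025 genes and 5.94% of the protein-coding genes. It is printed for a pair of members in which it lies close upstream of the start, with the match in capitals, 15 bases before the start in Rpl37 and 48 before it in Rpl41.
Rpl37, chr15:5116579-5116608, plus strand: accaagacccgCCGGAAGTagtttcctggg
Rpl41, chr10:128549206-128549235, minus strand: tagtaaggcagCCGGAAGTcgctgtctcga
The YY1 sequence AAGATGGC was found in 9.52% of members, 3.19% of all genes and 3.64% of protein-coding genes. The GC box GGGCGG was found in 52.4% of members and 38.2% of all genes, but in 51.0% of protein-coding genes, close to the members' share. The E-box CACGTG, which MYC binds, was found in 7.14% of members, 8.09% of all genes and 9.18% of protein-coding genes, and TATAAA in 11.9%, 15.7% and 14.3%. None of these motifs contains another. These are matches of letters in 1 window, and binding of the factors was not measured.

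Before the results, some facts of the groups bear on every comparison. Estimated fragments were 6881671 to 7386338 per group, and 18031 to 19336 loci reached FPKM 1 (fragments per kilobase of transcript at a fixed depth, a level per length). Smn1, the gene disrupted in the homozygotes, was at FPKM 2.70, 4.46 and 3.54 in control cords at P2, P6 and P10. It was at 0.0210 in SMA cords at P2 and listed at 0 at P6, but at 2.82 in the group labelled SMA at P10, near the controls, so that label is not borne out by this gene. Myelin genes also placed a group apart, the one labelled SMA at P2. Mbp, a structural protein of myelin, was at FPKM 149.6, 1012 and 4281 in control cords at P2, P6 and P10. In those labelled SMA it was at 1840.5, 1130.1 and 2294. Its value in SMA at P2 was thus above both P6 groups, so that age label is not borne out by this gene. The defining markers of the cord were present in every group, with Snap25 of neurons at 109 to 165 and the regional gene Hoxc8 at 17.2 to 20.5. In such bulk tissue, fewer cells of a type and less RNA per cell cannot be told apart, and FPKM is a share of the library, not an amount per cell.

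The 53 members were abundant in all 6 groups: each was above FPKM 1 with an OK status everywhere, and the lowest of them stood above 87.9% to 93.8% of protein-coding loci at FPKM 1 or more, depending on the group. Their median FPKM at P2, P6 and P10 was 181, 153 and 129 in control cords and 178, 169 and 139 in SMA cords. Of all estimated fragments, members took 0.815%, 0.675% and 0.542% in the control groups of rising age, and 0.758%, 0.657% and 0.572% in the groups labelled SMA. The share was thus lower at each later age in both genotypes, and the SMA share lay below the control share at P2 and P6 and above it at P10.

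**Figure D1:**
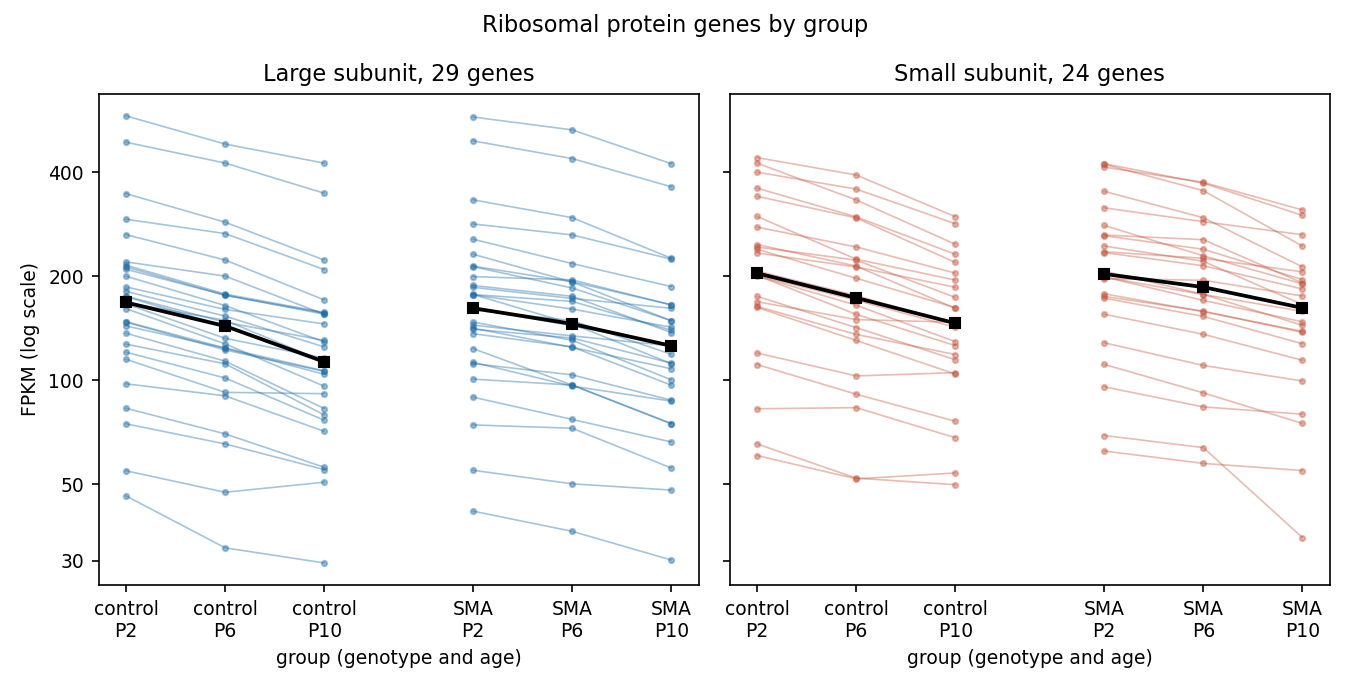
FPKM (log axis) of the 29 large (left) and 24 small (right) subunit genes in each genotype at P2, P6 and P10; each thin line is 1 gene, joined within a genotype, and the black squares are the medians. Levels span from 29.5 to 583, the medians are lower at each later age, and lines seldom cross.

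Genes of the large subunit had a median FPKM of 168, 143 and 113 in control cords at P2, P6 and P10, and 162, 145 and 126 in SMA cords. Small subunit genes had higher medians, 204, 173 and 146 in control and 203, 186 and 162 in SMA. The large subunit genes nevertheless held 50.2% to 50.9% of the summed FPKM of the members, with a standard deviation of 0.212 percentage points over the 6 groups, so the balance of the subunits was near even at every age and in both genotypes. This even share rests on which loci are counted: with the joined loci added it was 52.9% to 54.8%, and without the 3 most abundant members it was 46.7% to 47.4%. The share with joined loci leans on 1 small subunit locus, which joins Rps3 with a snoRNA gene, at FPKM 1100 to 1571 with wide intervals. Without that locus the large subunit share would be higher, and its value is not given here. Within the members, the order of the genes by FPKM was almost the same in any pair of groups, with Spearman's rho from 0.981 to 0.997 over 15 pairs of groups and 53 genes, as a description.

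The ends of that order were the same few genes. Rplp1, an acidic protein of the stalk that binds elongation factors, was the most abundant member in every group, at FPKM 583, 483 and 425 in control and 578, 531 and 423 in SMA cords at P2, P6 and P10. Rpl41, which encodes the shortest ribosomal protein, stood next at 489, 425 and 348 in control and 493, 438 and 363 in SMA. Rpl38, which mouse mutants link to the translation of Hox mRNAs, was the third of the large subunit, at 347, 287 and 223 in control and 333, 295 and 225 in SMA. All of these were lower at each later age.

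At the other end, Rpl29, known as a heparin-binding protein, was the lowest member by its mean, at 46.2, 32.7 and 29.5 in control and 41.7, 36.5 and 30.1 in SMA. Rpl28 of the large subunit was at 54.6, 47.3 and 50.6 in control and 54.8, 50.1 and 48.0 in SMA, a range much narrower than that of Rpl29. Rpl22, a large subunit protein needed for T cell development in mice, was the next lowest of its subunit at 74.7, 65.3 and 55.0 in control and 74.2, 72.5 and 55.6 in SMA. Rps16, Rps18 and Rps15a were the lowest of the small subunit and are described with the comparisons below.

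In the small subunit, Rps12 had the highest mean, at FPKM 441, 393 and 297 in control and 414, 374 and 311 in SMA cords. Rps27, a zinc finger protein, was at 425, 332 and 247 in control and 424, 372 and 299.9 in SMA. Rps29, another zinc-binding protein, was at 400.2, 357 and 284 in control and 422, 354 and 244 in SMA. These genes started within about the same range at P2 and differed more at P10, where Rps29 was lowest of them in the group labelled SMA.

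The order was only weakly related to transcript length: Spearman's rho between mean FPKM and the length of the annotated transcript with the longest coding part was -0.23 over the 53 genes, which share the libraries and the length model, with lengths of 271 to 1613 bases. Reads can also be shared with processed pseudogenes, near copies of these mRNAs. GENCODE names 178 pseudogenes after 41 of the members, and of the 168 such loci that the table lists, 26 had FPKM 1 or more in a group, up to 100.3, so the values of members with many copies (Rpl31 with 24, Rps12 with 23 and Rps19 with 14) are uncertain to that extent.

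The comparison of ages asked how the ribosomal protein genes differ as the cord matures. In control cords every member had a lower FPKM at P10 than at P2. The median member was at 70.5% of its P2 value, a log2 ratio of -0.50, with a range from -0.78 to -0.11 and a median standard error of 0.42. Among all 19956 loci tested the median was 0.02 and 48.2% were lower, and the protein-coding median was 0.02. By the z test on the deposited intervals, 0 of 53 members passed an adjusted p of 0.05, against 0.631% of all loci tested, and 0 had an unadjusted p under 0.05, against 3.51%. The direction was thus shared by 53 of 53 genes, while no single gene passed the test that its deposited interval allows.

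That error is wide beside the differences. The upper bound of the interval lay 39.8% to 40.7% above the FPKM for the median member, and up to 98.7% for Rpl35a, while the log2 ratios of the 53 members had a standard deviation of 0.15. The interval thus allowed far more movement than the members showed among themselves.

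The group labelled SMA at P10 was also lower than SMA at P2 for 53 of 53 members, with a median log2 ratio of -0.43, at 74.4% of the P2 value, where 43.3% of all loci tested were lower and the median of all was 0.05. Again 0 members passed the adjusted threshold, against 0.0602% of loci, and 0 had an unadjusted p under 0.05, against 0.331%. Both genotypes, which share no libraries, therefore had the members lower at P10, and the ratios of a gene in the 2 genotypes were loosely related, with Spearman's rho of 0.50 and Pearson's r of 0.28 over 53 genes. The SMA ratios rest on the groups labelled SMA at P2 and P10, whose labels Mbp or Smn1 did not bear out.

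**Figure D2:**
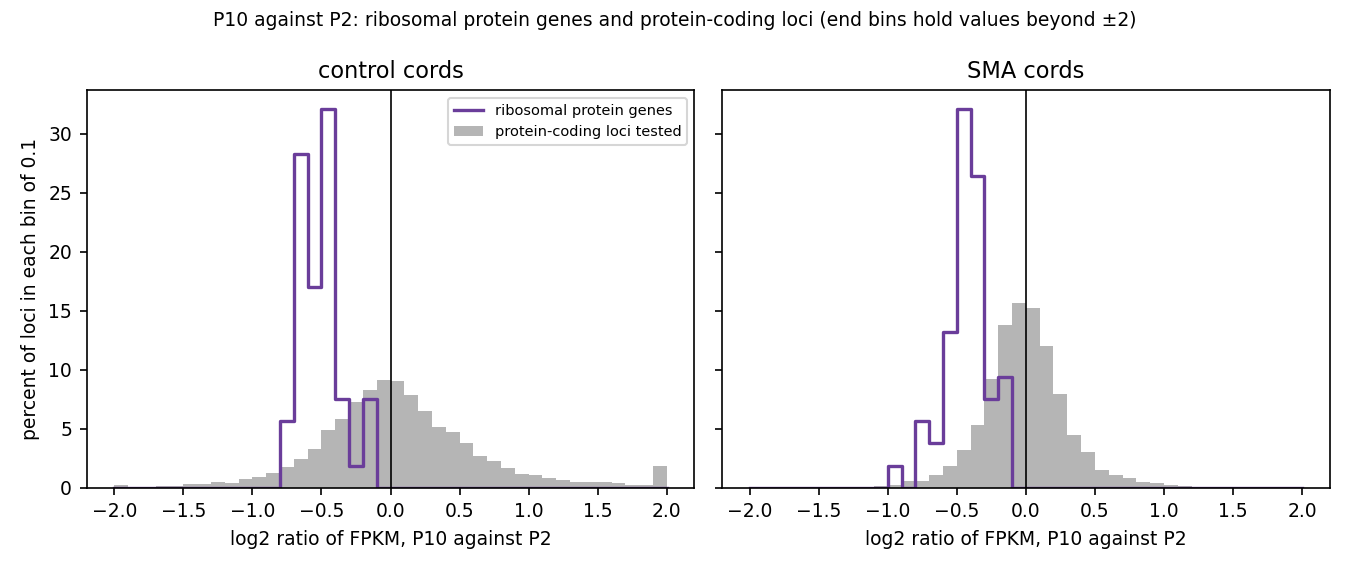
Share of loci (percent) in bins of 0.1 of the log2 ratio of FPKM, P10 against P2, for control (left) and SMA (right) cords; the purple outline is the 53 ribosomal protein genes and the grey bars are the protein-coding loci tested. The outline lies wholly below 0, around medians of -0.50 and -0.43, while the grey bars centre near 0.

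The subunits did not separate. In control cords the median log2 ratio of P10 against P2 was -0.49 for large and -0.53 for small subunit genes, and in the groups labelled SMA it was -0.43 for both. The spread of the single genes was 0.13 for the large and 0.17 for the small subunit in control cords, as standard deviations of log2 ratios. The difference between the medians was thus smaller than the spread within either subunit.

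A fit with limma over the 6 group values, with age and genotype as terms and 2 residual degrees of freedom, used the genotypes as repeats of the age difference. Every member had a negative P10 coefficient there, with a median of -0.45 and a median standard error of 0.11, against 43.4% of 21962 loci. An unadjusted limma p under 0.05 with a lower value was reached by 49 of 53 members, against 6.45% of all loci; Rpsa, Rps15a, Rps16 and Rpl28 were the 4 that did not reach it. None passed the adjusted threshold, as against 0.0137% of loci, and the smallest adjusted limma p of a member was 0.283. All 53 members stayed lower when the group labelled SMA at P10 was left out, and also when SMA at P2 was left out. Each of these reduced fits has only the control value at the age concerned. Fewer members than in the full fit reached an unadjusted limma p under 0.05 there. The shares of all loci in the reduced fits are not given here, so those counts have no background and are not printed.

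**Figure D3:**
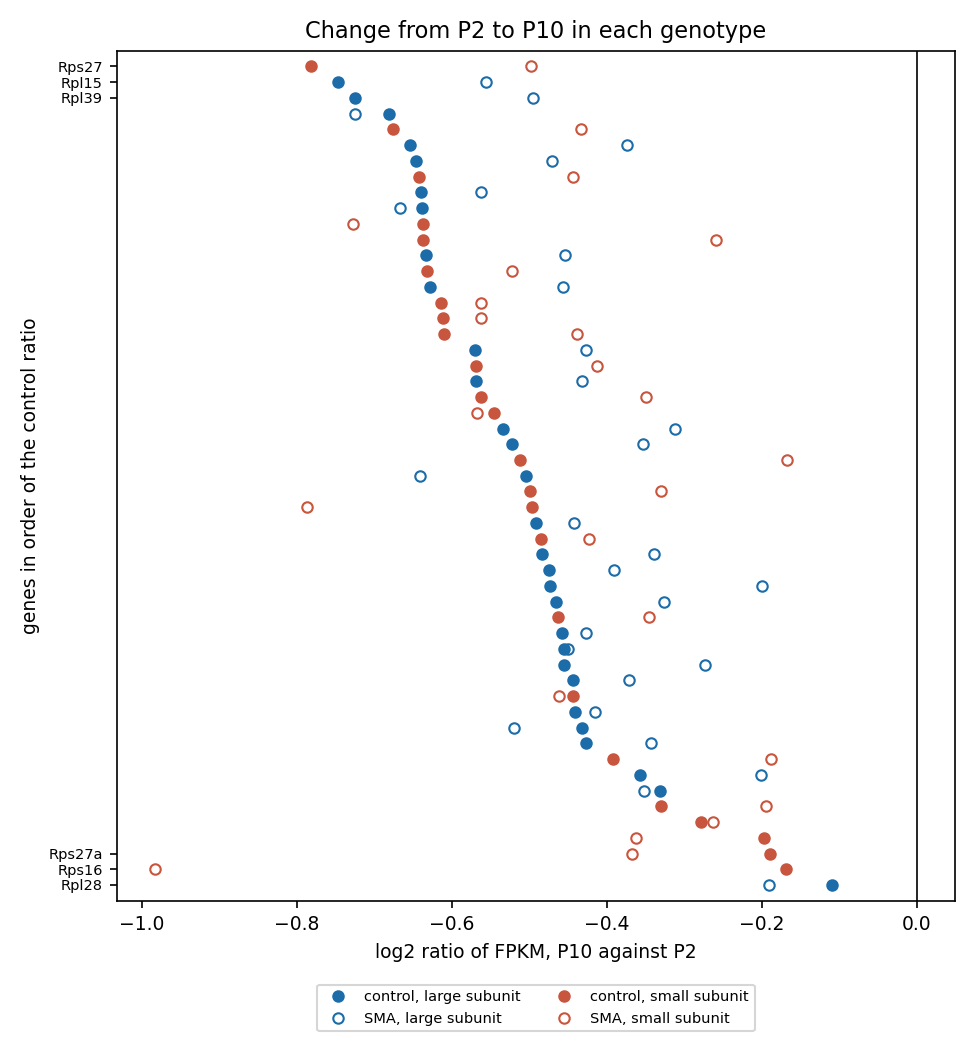
Log2 ratio of FPKM at P10 against P2 for each of the 53 genes, ordered by the control ratio, with the 3 genes at each end named; filled points are control and open points SMA, blue large and red small subunit. Points run from -0.98 to -0.11 and none reaches 0; Rps16 has the widest gap between its points.

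Among genes of the large subunit, Rplp0, the base of the stalk, was at FPKM 200.0, 164 and 129 in control and 188, 175 and 137 in SMA cords at P2, P6 and P10, a control log2 ratio of -0.63 ± 0.42. Rplp1, given above, had -0.46 ± 0.40 in control and -0.45 ± 0.40 in SMA. Both stalk proteins were lower at each later age in each genotype, with P10 at 64.5% and 72.9% of P2 in control cords.

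Rpl11, which with Rpl5 and the 5S RNA can bind and block the p53 regulator Mdm2 when it is not in a ribosome, was at 144, 124 and 104 in control and 140.4, 132 and 112 in SMA. Its log2 ratio in control was -0.47 ± 0.42, and relative to the median member it moved least of all, within 0.04 on the log2 scale over the 6 groups. It thus tracked the members as a whole.

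The largest ratio of the large subunit belonged to Rpl15, one of the genes mutated in human Diamond-Blackfan anaemia, a failure of red cell production, at 161, 127 and 96.0 in control and 147, 130.4 and 100.2 in SMA, with -0.75 ± 0.64 in control. Rpl39, a short protein that lines the exit tunnel, was at 137, 113 and 82.7 in control and 136, 125 and 96.7 in SMA, with -0.73 ± 0.43. Rpl35, at the exit of that tunnel, was at 127, 111 and 79.2 in control and 123, 96.8 and 74.7 in SMA, and had the smallest unadjusted limma p of the members, 0.000905, with -0.70 ± 0.11 over both genotypes. P10 stood at 59.6%, 60.5% and 62.4% of P2 in control cords for these 3 genes.

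Rpl28 stood at the other end. Its control log2 ratio of -0.11 ± 0.63 left it at 92.7% of P2, and its SMA ratio was -0.19 ± 0.78. Its P10 value in control was above its P6 value, and its interval was among the wider ones. Since Rpl15, Rpl35 and Rps27 carry the tract printed above as Rpl28 does, members with a tract lay at both ends of the order.

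Over the 12 members with a tract at the annotated start the median log2 ratio of P10 against P2 was -0.49 in control and -0.41 in SMA. Over the 30 without one it was -0.53 and -0.41. The ranges overlapped almost wholly, from -0.78 to -0.11 with a tract and from -0.73 to -0.17 without in control cords. A start annotated a few bases away hides a tract, so the 30 can include genes whose mRNA begins with one. The split thus cannot show whether the tract bears on the change with age.

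In the small subunit, Rps27 had the largest control ratio of all members, -0.78 ± 0.41, with P10 at 58.2% of P2 and an unadjusted p of 0.0593 by the z test on the interval. Rps19, the gene most often mutated in human Diamond-Blackfan anaemia, was at 201, 155 and 126 in control and 199, 170.2 and 148 in SMA, with -0.68 ± 0.44 in control. Rps26, which lies at the mRNA exit, was at 359.8, 297 and 231 in control and 352, 295 and 213 in SMA, with -0.64 ± 0.40 and -0.73 ± 0.42. All 3 were lower at each later age in both genotypes.

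Rps6, the substrate of S6 kinase downstream of mTOR, was at 201, 170.3 and 142 in control and 199, 177 and 158 in SMA, with -0.50 ± 0.41 in control. Rps14, whose loss on one human chromosome arm underlies the 5q- syndrome, was at 163, 136 and 119 in control and 175, 158 and 138 in SMA, with -0.46 ± 0.41. Rpsa, also known as the laminin receptor, was at 233, 213 and 186 in control and 235, 225 and 206 in SMA, with -0.33 ± 0.48. These lay close to or above the median member, and Rpsa was the mildest of the 3.

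Rps27a, made as a fusion with ubiquitin, had one of the smallest ratios in control cords, at 119.8, 103 and 105, with -0.19 ± 0.42, and was at 128, 110.3 and 99.4 in SMA. Rps16, whose tail reaches the P site of the small subunit, was at 60.5, 51.8 and 53.8 in control, with -0.17 ± 0.50, but at 69.1, 63.8 and 35.0 in the groups labelled SMA, with -0.98 ± 0.56. This was the least uniform member, with a range of 0.74 on the log2 scale over the 6 groups after the median member is taken off. Its locus also holds 1 snoRNA gene and it has 2 named pseudogenes.

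The other small subunit genes at the ends of a comparison were Rps29, with -0.50 ± 0.39 in control and -0.79 ± 0.41 in SMA, and Rps4x, an X-linked member at 207, 176 and 145 in control and 197, 195 and 175 in SMA, with -0.51 ± 0.41 and -0.17 ± 0.42. Rps18 was at 65.3, 52.0 and 49.8 in control and 62.3, 57.4 and 54.7 in SMA, with -0.39 ± 0.67 and -0.19 ± 0.68. For Rps4x and Rps18 the ratio was the mildest in the group labelled SMA, and for Rps29 it was among the greatest.

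The steps between ages were looked at one by one, with P6 shared by both steps. From P2 to P6, 52 of 53 members were lower in control cords, with a median log2 ratio of -0.25, where 50.3% of loci were lower, and 53 of 53 in SMA cords, with -0.15, where 43.6% were. Rps15a was the exception, at 82.6 and 83.2 in control, and its estimated counts went the other way, 1235 and 1031. Rpl29 had the largest ratio in control, -0.50 ± 0.44, followed by Rps28, at 298 and 224, with -0.41 ± 0.43. In SMA cords Rpl35 had the largest, -0.35 ± 0.55, and Rps4x the smallest, -0.02 ± 0.42.

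From P6 to P10, 50 of 53 were lower in control cords, with a median of -0.29, where 47.2% of loci were lower, and 53 of 53 in the groups labelled SMA, with -0.26, where 47.8% were. The exceptions in control were Rpl28 at 0.10 ± 0.63, Rps16 at 0.06 ± 0.48 and Rps27a at 0.03 ± 0.42, and the latter pair is lower once ratios are centred on the protein-coding median. The largest control ratio was that of Rpl35, -0.49 ± 0.56, and the largest in SMA was that of Rps16, -0.87 ± 0.58. In these 4 steps 0 members passed the adjusted threshold or an unadjusted p of 0.05 by the z test. The shares of all loci that passed the adjusted threshold were 0.112% for P2 to P6 and 0.0751% for P6 to P10 in control, and 0.0312% and 0.0398% in SMA. At an unadjusted p under 0.05 these shares were 0.637% and 1.12% in control, and 0.234% and 0.324% in SMA. With limma over both genotypes, P6 against P2 gave 53 of 53 lower values, against 46.0% of loci. Of these members, 6 had an unadjusted limma p under 0.05, against 1.67% of all loci, and 0 were called, against 0.00911%. That count of 6 moved between 1 and 20 with the settings, for which the shares of all loci are not given here.

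Markers of cell types differed over the same ages, and their part in the result was not tested. The summed FPKM of the 13 cord markers with a locus of their own was 565, 2048 and 7544 in control cords at P2, P6 and P10, and 3589.6, 2285 and 4326 in the groups labelled SMA; of these, 3 passed the z test for P10 against P2 in control, Mbp and Mag among them. Among the 13, 10 were higher at P10 than P2 in control cords, with a median log2 ratio of 0.56, and Gfap of astrocytes was at 65.6 and 318. In the groups labelled SMA 10 were also higher, with a median of 0.12. The sums are thus weighted to the most abundant markers, such as Mbp. At P2, Mbp was at 1840.5 in the group labelled SMA and 149.6 in control, and the member median was 178 and 181.

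For 6 muscle markers the sum was 10.3, 6.67 and 1.92 in control and 16.0, 7.45 and 2.22 in SMA, so muscle genes were lower with age too, with Acta1 at 5.67 at P2 and 0.686 at P10 in control. Sums for 7 markers of nerve and ganglion were 81.7, 167 and 274 in control and 90.4, 222 and 139 in SMA; Pmp22 passed the z test for P10 against P2 in control. For 6 red cell markers they were 750, 967 and 713 in control and 502, 801 and 455 in SMA. For 6 meningeal markers they were 137, 173 and 173 in control and 133, 198 and 103 in SMA, and for 7 genes of dividing cells 50.5, 52.1 and 41.8 in control and 43.5, 47.4 and 44.2 in SMA. Of these markers none was at 0 in a group, though Scn10a of sensory neurons was as low as 0.00582 in SMA cords at P2.

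The comparison of genotypes asked whether ribosomal protein genes differed in SMA cords at each age. At P2, 19 members were higher and 34 lower in SMA, with a median log2 ratio of -0.02 and a range from -0.15 to 0.21, where 49.0% of all loci were higher and 51.0% lower. At P6, 43 were higher and 10 lower, with a median of 0.08, where 60.1% of loci were higher and 39.9% lower and the protein-coding median was 0.11. At P10, 38 were higher and 15 lower in the group labelled SMA, with a median of 0.08, where 55.6% of loci were higher and 44.4% lower and the protein-coding median was -0.00. By the z test 0 members passed the adjusted threshold or an unadjusted p of 0.05 at any age, against 0.126%, 0.0458% and 0.0397% of loci called at P2, P6 and P10 and 0.743%, 0.168% and 0.213% at an unadjusted p under 0.05.

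These medians are small beside the median standard error of a member, 0.42 at each age, so the absence of calls does not show equal levels. They also depend on the scale: centred on the protein-coding median, 34 of 53 members were lower in SMA at P6, not 10, while at P2 the count of lower members was 41 and at P10 it stayed at 15. The direction at P6 thus turned with the scale.

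**Figure D4:**
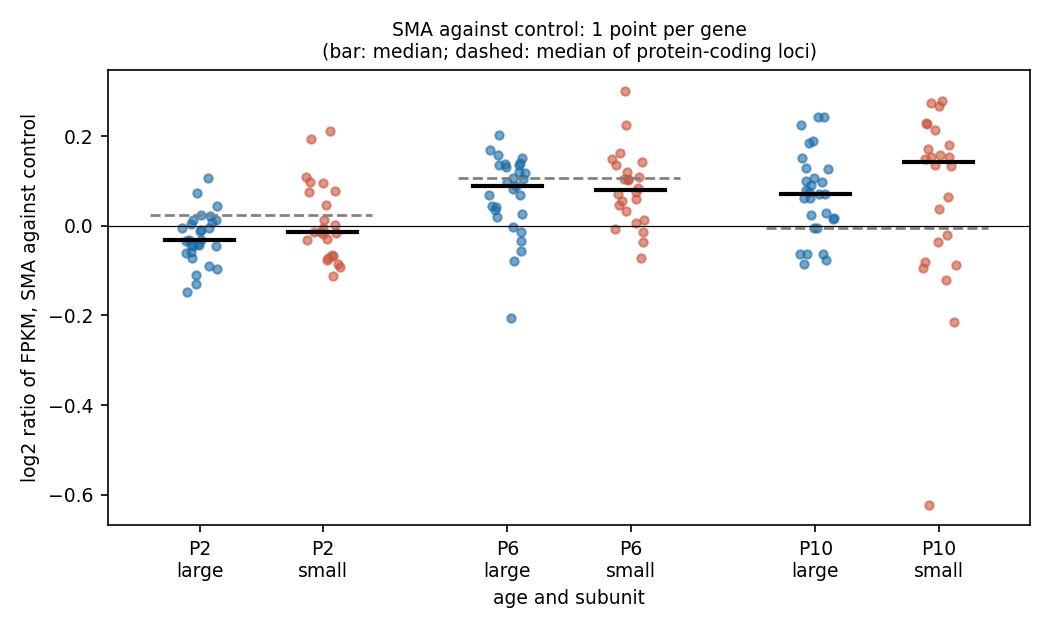
Log2 ratio of FPKM, SMA against control, at P2, P6 and P10; each point is 1 gene, blue large and red small subunit, black bars are medians and dashed lines the median of all protein-coding loci tested. Most points lie within 0.3 of 0, the P6 medians sit below the dashed line, and Rps16 at P10 stands alone at -0.62.

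By subunit the medians were -0.03 for large and -0.01 for small at P2, 0.09 and 0.08 at P6, and 0.07 and 0.14 at P10. The spread of single genes at P10 was 0.09 in the large and 0.20 in the small subunit, wider than the gap between the medians. With limma across the 3 ages, 41 members were higher and 12 lower in SMA, with a median of 0.039 and a median standard error of 0.09. Of all 21962 loci, 60.7% were higher and 39.3% lower. Among 12146 protein-coding loci, 8341 were higher and 3805 lower, and their median of 0.044 was above that of the members. In that fit 0 members were called, against 0.00455% of loci, and 0 had an unadjusted limma p under 0.05, against 2.05%.

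At P10 the 3 lowest and the 3 highest ratios were those of small subunit genes. Rps16 at P10 was at 35.0 in the group labelled SMA and 53.8 in control, a log2 ratio of -0.62 ± 0.57 with an unadjusted z test p of 0.275, but it was higher in SMA at P2 and P6, with 0.19 ± 0.49 and 0.30 ± 0.50. Its estimated counts, 202 and 298 at P10, differed the same way. Rps29 at P10 was at 244 against 284, with -0.21 ± 0.42, while its estimated counts, 514 and 519, were nearly equal. Rps26 at P10 was at 213 against 231, with -0.12 ± 0.41.

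On the higher side at P10 were Rps27, with 299.9 against 247 and 0.28 ± 0.42, Rps4x, with 175 against 145 and 0.27 ± 0.41, and Rps24, a human Diamond-Blackfan anaemia gene, with 264 against 219 and 0.27 ± 0.56. None of these intervals leaves out 0. At P6 the ends were Rps16 as above, Rps14 at 158 against 136 with 0.22 ± 0.41, Rpl9 at 169 against 147 with 0.20 ± 0.42, and on the lower side Rpl35 at 96.8 against 111 with -0.20 ± 0.54, Rpl10a at 96.1 against 101 with -0.08 ± 0.42 and Rps12 with -0.07 ± 0.39.

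At P2 the highest ratios in SMA were those of Rps15a, at 95.6 against 82.6 with 0.21 ± 0.81, Rps16, and Rps21 at 262 against 243 with 0.11 ± 0.39. The lowest were Rpl29 at 41.7 against 46.2 with -0.15 ± 0.44, Rpl15 with -0.13 ± 0.61, and Rps24 at 316 against 341 with -0.11 ± 0.51. Over the 3 ages, 10 members were higher in SMA each time, against 12.3% of 17857 loci tested at all of them, and 2, Rps26 and Rpl35, were lower each time, against 5.91%.

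Whether the genotype difference itself changed from P2 to P10 was tested as a difference of log2 ratios. It was positive in 40 of 53 members, or 75.5%, against 53.9% of all 18222 loci tested and 47.6% of the protein-coding ones; that is, the lower level at P10 was milder in the groups labelled SMA than in control for 40 and greater for 13, with a median of 0.12 and a median standard error of 0.59. None passed the adjusted threshold, against 0.0659% of loci, and 0 had an unadjusted p under 0.05, against 0.938%. The median over all loci was 0.05 and over protein-coding loci -0.03. Rps24 at 0.38 and Rps4x at 0.35 were the highest, and Rps16 at -0.81 ± 0.75 the lowest. These values rest on SMA at P2 and at P10, the groups whose myelin genes or Smn1 stood apart.

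Other genes of the translation machinery were set beside the members for P10 against P2. The 23 joined ribosomal protein loci had a median log2 ratio of -0.41 in control, with 21 of 23 lower, and -0.32 in SMA, with 23 of 23 lower. Translation factors and other mRNAs known to carry a TOP tract had -0.27 and -0.16, with 13 and 15 of 19 lower. Among these, Eef2, which moves the ribosome along the mRNA, was at 254 in control at P2 and 216 at P10, Eif3e of an initiation factor was at 56.3 and 36.2 and Eef1g at 123 and 86.0, while Tpt1 was at 170.0 and 201 and Pabpc1 at 47.3 and 57.0. The factors thus leaned the same way as the ribosomal proteins, less uniformly, and some were higher.

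Genes of ribosome assembly had medians of -0.13 in control and -0.10 in SMA, with 27 and 25 of 37 lower. Npm1, a nucleolar chaperone, was at 113 and 81.7 in control at P2 and P10 and at 105 and 109 in SMA; Rrp1, an rRNA processing factor, was at 39.6 and 39.2 in control. Proteins of the mitochondrial ribosome, which share the name but are made for another organelle, had -0.07 and -0.13, with 41 and 51 of 66 lower, of which Mrpl52 was at 50.4 and 30.8 in control. Regulators of translation such as Mtor, at 12.4 and 12.9, and Larp1, at 17.5 and 17.6, had medians of 0.01 over 13 genes in control and 0.05 over 12 in SMA. In none of these lists was a gene called by the z test in either genotype.

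**Figure D5:**
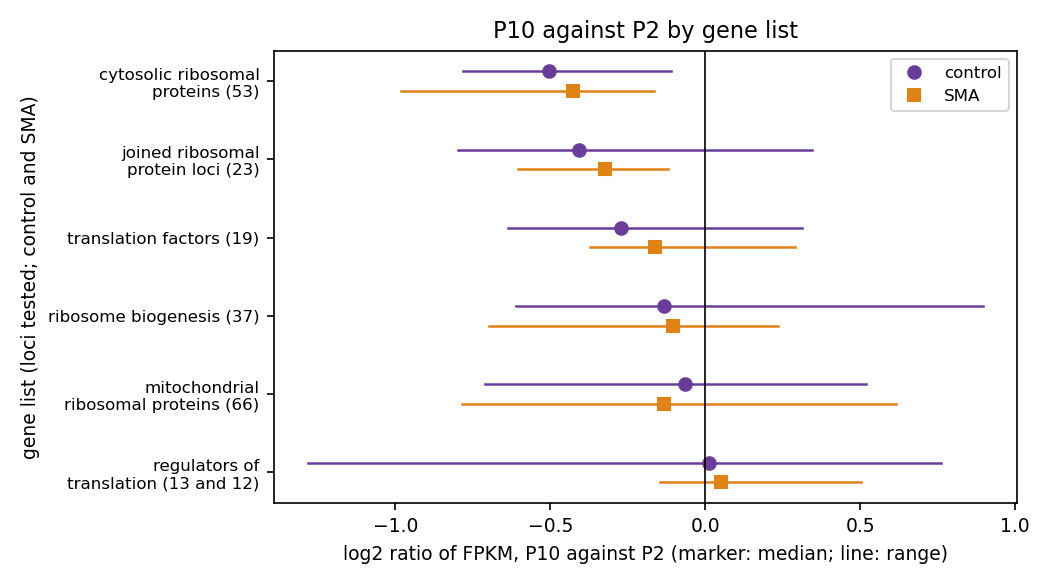
Log2 ratio of FPKM at P10 against P2 for 6 gene lists; circles (control) and squares (SMA) are medians and lines the full range of the genes tested. The ribosomal protein medians, -0.50 and -0.43, are the lowest, and those of the regulators lie at 0.01 and 0.05.

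A list was also fixed around p53 and the ribosomal proteins that can act on it when not in a ribosome. Unassembled ribosomal proteins were not measured, and whether they bear on these genes was not tested. Mdm2 was at 11.5, 9.69 and 14.0 in control and 13.9, 11.4 and 13.6 in SMA cords at P2, P6 and P10, and Trp53, the gene of p53, at 6.45, 5.55 and 7.15 in control and 6.95, 6.85 and 6.56 in SMA. Cdkn1a, a p53 target, was at 7.43, 5.70 and 3.69 in control and 9.92, 11.0 and 9.41 in SMA, higher in SMA at each age without being called at any. The genotype ratios of Rpl11 were -0.03 ± 0.42, 0.10 ± 0.42 and 0.11 ± 0.42.

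Ribosomal protein genes left out of the rule because they are joined with other genes include several that carry a named function. Rplp2, the partner of Rplp1 in the stalk, was at 135, 110.1 and 116 in control and 135, 129 and 108 in SMA in a locus with a snoRNA. Rpl5, the partner of Rpl11, was at 120.5, 103 and 96.1 in control and 119, 113 and 102 in SMA. Rpl10, which completes the large subunit, was at 213, 175 and 139 in control and 192, 183 and 156 in SMA. Their control log2 ratios of P10 against P2 were, in that order, -0.21 ± 0.49, -0.33 ± 0.56 and -0.61 ± 0.41.

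Rpl3, near the catalytic centre, was at 168, 148 and 148 in control and 177, 175 and 147 in SMA. Rpl23a, at the tunnel exit, was at 288, 245 and 190.5 in control and 259.9, 246 and 209 in SMA, and Rpl24 at 121, 107 and 89.8 in control and 120.3, 107 and 88.9 in SMA, both lower with age. Rps3, at the mRNA entry, sat in a locus with a snoRNA gene (Snord15b) at 1100.0, 1268 and 1398 in control and 1571, 1290.1 and 1199 in SMA. That level lay far above every member and was higher at each later age in control, with a log2 ratio of P10 against P2 of 0.35 ± 1.85, and its estimated counts were lower at P10, 1254 against 1520.3. Of the 23 joined loci 21 held a snoRNA gene inside, against 8 of the 53 members. The other symbol of a joined locus is often that of a snoRNA gene, so this contrast follows in part from how these loci were set apart.

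Some genes of ribosomal proteins bear other names and were outside the rule. Fau, whose product is cut to release a small subunit protein, was at 156, 129.9 and 115 in control and 159, 140.5 and 105 in SMA, and Rps3a1 at 149, 134 and 121 in control and 157, 139.9 and 137 in SMA. The locus of Rack1, a scaffold on the small subunit, was at 129, 100.4 and 88.8 in control and 119, 115 and 99.5 in SMA. These 3 were lower at P10 than at P2 in both genotypes, with control log2 ratios between -0.54 and -0.30.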

How the data were processed

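Per the submitters' processing notes, the tools were FastQC, Bowtie2 2.2.4, TopHat2 2.1.1, Picard, Cufflinks 2.2.1 and Cuffdiff on GRCm38; annotation release, strand setting and normalization are not given in the sources used here. The authors deposited FPKM per gene locus and group with the bounds of an interval, and expected counts (estimated fragments) with a variance. The interval was read as a 95% interval of the group value. Each of the 6 groups combines 3 libraries, so single libraries are not analysed here. The tables held 0 per-sample columns left unused.

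Groups were compared with a two-sided z test of the log2 ratio of FPKM, in 9 comparisons, with the standard error from the upper bound divided by 1.96, over loci at FPKM 1 or more in at least 1 group compared, above 0 in both and with status OK. limma 3.58.1 in R 4.3.3 was fitted to the 6 group values of each locus as log2(FPKM + 1), with terms for age and genotype and a variance trend, on 2 residual degrees of freedom. P values were adjusted by Benjamini-Hochberg over all loci tested. Both tests were also run on simulated data, with changes larger than those of any member. Their recovery of changes of the size reported here was not tested. Since p-values rest on model intervals or on group values, they cannot be read as a measure of spread between animals. Whether the intervals cover counting and model error only, or also spread between libraries, is not stated in the sources used here.

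Members and gene lists were chosen with earlier results of these data known. Named genes were 16 fixed by role, of which 9 are members, the 3 highest and 3 lowest by mean FPKM in each subunit, the 3 members at each end of every comparison, called genes and the 2 most abundant of each list; others were chosen after their values were seen, and a few genes are not reported here. Symbols were placed with GENCODE M21, and start sites and sequences came from RefSeq. Other steps used Python 3.11.15 with scipy 1.17.1, pandas 2.3.3, matplotlib 3.10.9 and numpy 2.4.6.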

Additional observations from a re-analysis of the deposited data

How the results depend on the processing

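No paired analysis was possible because the tables hold 1 combined value per group; for the same reason no single replicate could be left out. Settings tried were estimated counts in place of FPKM, no minimum or a minimum FPKM of 5, centring on protein-coding loci, joined loci added, the interval read as that of 1 library, p adjusted over protein-coding loci, a pseudocount of 0.1, no variance trend, and single ages or groups left out; leaving out a group and the counts of lower members were added after seeing the data. All 53 members were lower at P10 than at P2 in control and in SMA in every setting run on them, and with joined loci 74 and 76 of 76 were. The median log2 ratio ranged from -0.52 to -0.49 in control and from -0.43 to -0.37 in SMA. With the interval of 1 library, 1 member was called in control, Rps27 at -0.78. The share of all loci called in that setting is not given here, so this call has no background to be set against. At SMA against control, 34 members were lower at P6 after centring, and 23 of 76 at P10 with joined loci. Signs turned for Rps15a at P6 against P2 in control (-0.26 in estimated counts), for Rps16 and Rps27a at P10 against P6 in control (-0.0075 and -0.032 after centring), and for Rps18 at P10 against P6 in SMA (0.042 in estimated counts). The limma count of members at an unadjusted p under 0.05 for P6 against P2 was 1 with no trend and 20 with estimated counts. The shares of all loci in these settings are not given here, so the counts have no background, and the cause was not tested. The large subunit share with joined loci was 54.8%, 53.5% and 52.9% in control at P2, P6 and P10 and 53.3%, 53.7% and 53.6% in SMA. These shares include the small subunit locus of Rps3, at FPKM 1100, 1268 and 1398 in control and 1571, 1290 and 1199 in SMA. Their order with age thus cannot be read apart from that locus. Without the 3 most abundant members it was 47.3%, 47.3% and 47.4% in control and 46.7%, 47.1% and 47.3% in SMA.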

Other observations

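Paralogs of ribosomal protein genes, which the rule leaves out, did not all go with the members. Rps4l, a paralog of Rps4x, was at FPKM 14.1, 8.44 and 5.64 in control cords at P2, P6 and P10 and at 12.8, 9.96 and 6.41 in the groups labelled SMA, a control log2 ratio of P10 against P2 of -1.33, larger in size than that of any member. Rpl36al was at 74.7, 62.8 and 51.7 in control and 71.9, 70.3 and 55.9 in SMA, close to the members. Rps27l, a p53 target, was at 24.5, 23.6 and 23.9 in control and 28.7, 28.5 and 24.8 in SMA, nearly level with age, and Rpl7l1 at 8.83, 8.04 and 9.10 in control and 9.04, 9.28 and 8.32 in SMA. Rpl22l1, the paralog of Rpl22, was at 35.6, 28.5 and 27.2 in control and 29.6, 37.5 and 34.2 in SMA. None of these differences was called by the z test. Rpl10l, of the testis, was listed at 0 in every group, and Rpl3l, of muscle and heart, was at most 0.280.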
